A study of Homo sapiens with 4 samples.

Results

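The genes described here are the 8 that set and read the main flow control of glycolysis: the phosphofructokinase subunits PFKL, PFKM and PFKP, the 4 bifunctional enzymes PFKFB1, PFKFB2, PFKFB3 and PFKFB4, and the phosphatase TIGAR. They were chosen by symbol, and each had 1 row among the 59652 genes of the count table. The libraries came from Huh7 and PLC, lines of human hepatocellular carcinoma that the labels list as wild type (WT). Both were grown in glucose-free medium with serum and antibiotics, to which either 5 mM glucose (low glucose) or 25 mM glucose (high glucose) was added for 48 h. Each line and concentration gave 1 library, 4 in all, so no difference between high and low glucose has a replicate check. The concentrations and the time are those of the study's methods and labels.

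Phosphofructokinase is the committed step of glycolysis. Its subunits are named after liver (PFKL), muscle (PFKM) and platelet (PFKP), and they assemble into tetramers whose makeup changes how the enzyme responds to ATP, citrate and its activator. That activator is a fructose bisphosphate made and removed by the PFKFB enzymes, each of which carries a kinase and a phosphatase in 1 protein. PFKFB1 is the form of normal liver, PFKFB2 that of heart, PFKFB3 an inducible form with a kinase far stronger than its phosphatase, and PFKFB4 a form first found in testis. TIGAR resembles the phosphatase part and lowers the activator. In hepatocytes this switch sets the balance of glycolysis and gluconeogenesis.

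The phosphatase site shows how the 5 genes with that activity are related, and how far their reads can be told apart. The 60 bases of coding sequence around it, read from the canonical transcript of each gene in GENCODE release 44, are given in the 5′ to 3′ direction, with the codons around the catalytic histidine in capitals:
PFKFB1: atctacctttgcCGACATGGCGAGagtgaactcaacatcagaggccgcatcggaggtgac
PFKFB2: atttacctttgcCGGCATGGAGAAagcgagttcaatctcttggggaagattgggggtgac
PFKFB3: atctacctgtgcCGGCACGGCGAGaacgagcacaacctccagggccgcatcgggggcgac
PFKFB4: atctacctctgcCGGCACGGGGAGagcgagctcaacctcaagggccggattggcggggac
TIGAR: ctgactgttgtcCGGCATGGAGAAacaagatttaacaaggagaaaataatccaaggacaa
PFKFB3 and PFKFB4 were the closest pair here, with 51 of 60 bases identical, whereas TIGAR shared 24 to 28 of 60 bases with the others. Over the whole aligned coding sequence, the PFKFB genes were 71.3% to 74.3% identical to each other, and PFKL, PFKM and PFKP 71.0% to 71.5%. Windows of 31 bases in which 2 of the 8 genes were the same were few: PFKFB3 shared 4 of 6268 with other members, and PFKP, with the most, 33 of 8008. Stretches that fit 2 members equally were thus a small part of each gene. Sequence held in common with any other annotated gene made up 0.447% of the windows of PFKFB3 and 24.1% of those of TIGAR, the lowest and the highest of the 8. In the table, 18.1% of the exon bases of TIGAR also belonged to AC008012.1 on the same strand, a gene with 0 reads in every library. How reads in such shared bases were assigned was not tested.

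The table gave 21376239 and 30085303 counted reads for Huh7 cells in low and high glucose, and 30279716 and 16049686 for PLC cells. All 10 hepatocyte markers examined had reads in both Huh7 libraries. In PLC cells 9 of them did in both libraries, and TTR had 4 and 0 reads. Markers of immune cells summed to 0.125 to 0.234 CPM, reads scaled to the library total, and those of fibroblasts to 0.498 to 4.72 CPM. Those of endothelial cells summed to 0.958 to 19.7 CPM, nearly all PECAM1, with VWF at 0 to 2 reads. Levels are given below as FPKM, reads per kilobase of exon scaled to the library total, because only a value per length allows genes to be compared with each other.

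**Figure D1:**
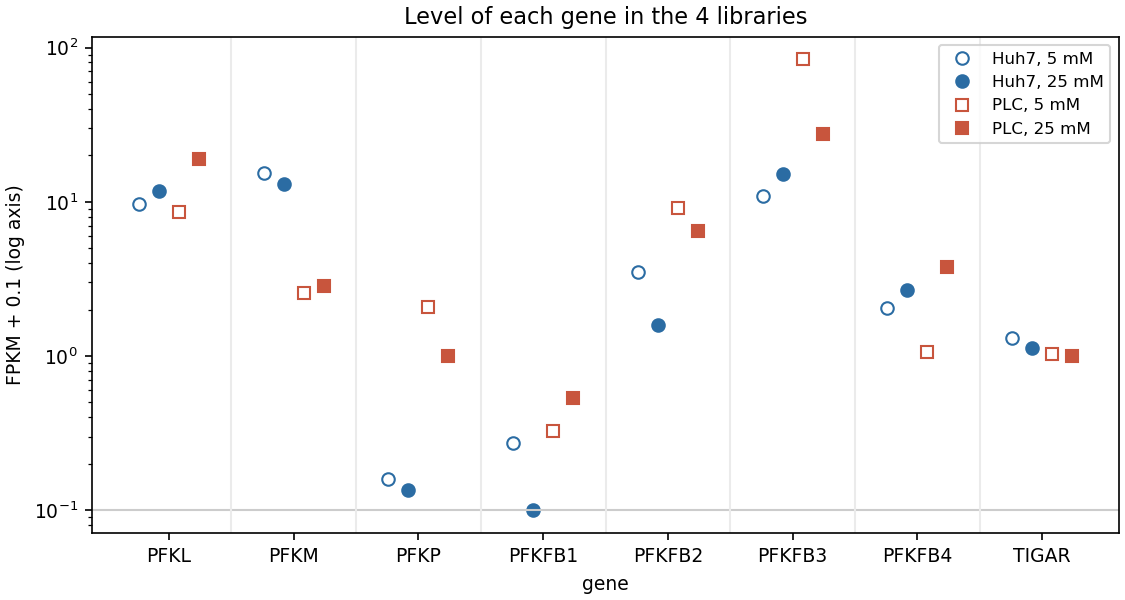
Level of the 8 genes in each library, as FPKM + 0.1 on a log axis. Circles are Huh7 and squares are PLC, open at 5 mM and filled at 25 mM glucose, 1 library per symbol; the grey line is 0 FPKM. PFKFB3 in PLC cells at 5 mM (83.8 FPKM) is the highest point, and PFKP is near the bottom in Huh7.

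The mixture of phosphofructokinase subunits differed between the lines. PFKM led in Huh7 cells and PFKL in PLC cells, and PFKP was almost absent from Huh7 cells. In RNA of whole cultures, fewer cells with a transcript and less of it per cell cannot be told apart. PFKM had 15.2 FPKM at 5 mM and 13 FPKM at 25 mM in Huh7 cells (2356 and 2831 reads), against 2.45 and 2.74 FPKM in PLC cells (538 and 319 reads). Both Huh7 values lay above both PLC values. PFKP was counted with 7 and 6 reads for Huh7, or 0.0590 and 0.0359 FPKM, against 332 and 80 reads for PLC, or 1.97 and 0.897 FPKM. This gene was thus close to the limit of detection in Huh7 cells and measurable in PLC cells. PFKL had 9.59 and 11.7 FPKM in Huh7 cells and 8.44 and 18.7 FPKM in PLC cells, so the lines overlapped.

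In a fit across all 23217 genes that passed the filter on low counts (edgeR's quasi-likelihood test, glucose as a block, Benjamini-Hochberg adjustment), 42.9% of genes differed between the lines, and 4 of the 8 members did. The 2 libraries of a line had different glucose concentrations and stood in place of replicate cultures. PFKM was lower in PLC than in Huh7 cells by a log2 change of -2.43 (SE 0.25, adjusted p = 4.4e-06 in edgeR), lower at both concentrations. PFKP was higher in PLC cells by a log2 change of 4.85 (SE 0.50, adjusted p = 4.47e-06 in edgeR), also at both concentrations. PFKL gave a log2 change of 0.26 (SE 0.25, adjusted p = 0.432 in edgeR), with PLC cells lower at 5 mM (0.880-fold) and higher at 25 mM (1.61-fold). The share of members called was close to that of all genes.

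Within each library, the isoform shares are free of library scaling. In Huh7 cells PFKM made up 61.2% of the summed FPKM of the subunits at 5 mM (counting interval 59.7% to 62.6%) and 52.6% at 25 mM (51.4% to 53.9%). PFKL made up the rest, 38.6% and 47.2%, with PFKP at 0.237% and 0.146%. The lead of PFKM in Huh7 cells at 25 mM rests on gene length, since PFKL had more reads (3130 against 2831), and PFKM fell to 47.4% without the length correction. In PLC cells PFKL made up 65.6% at 5 mM (63.8% to 67.4%) and 83.7% at 25 mM (82.3% to 85.2%). PFKM went from 19.1% to 12.3% there and PFKP from 15.3% to 4.01%. PFKL thus held a larger share of the subunits at 25 mM than at 5 mM in both lines.

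That shift can be stated with neither length nor depth in it, as the ratio of 2 genes' reads in 1 library against the same ratio in the other. PFKM relative to PFKL was 0.702 times its 5 mM value in Huh7 cells at 25 mM (95% counting interval 0.649 to 0.760) and 0.504 times in PLC cells (0.434 to 0.586). PFKP relative to PFKL was 0.205 times its 5 mM value in PLC cells (0.16 to 0.263). In Huh7 cells the same ratio, 0.501, was not distinguishable from 1 at this depth (0.168 to 1.49). The summed FPKM of the 3 subunits was 24.9 at 5 mM and 24.7 at 25 mM in Huh7, against 12.9 and 22.4 in PLC. The total was nearly equal in the Huh7 libraries and 1.74 times as high at 25 mM in PLC cells.

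**Figure D2:**
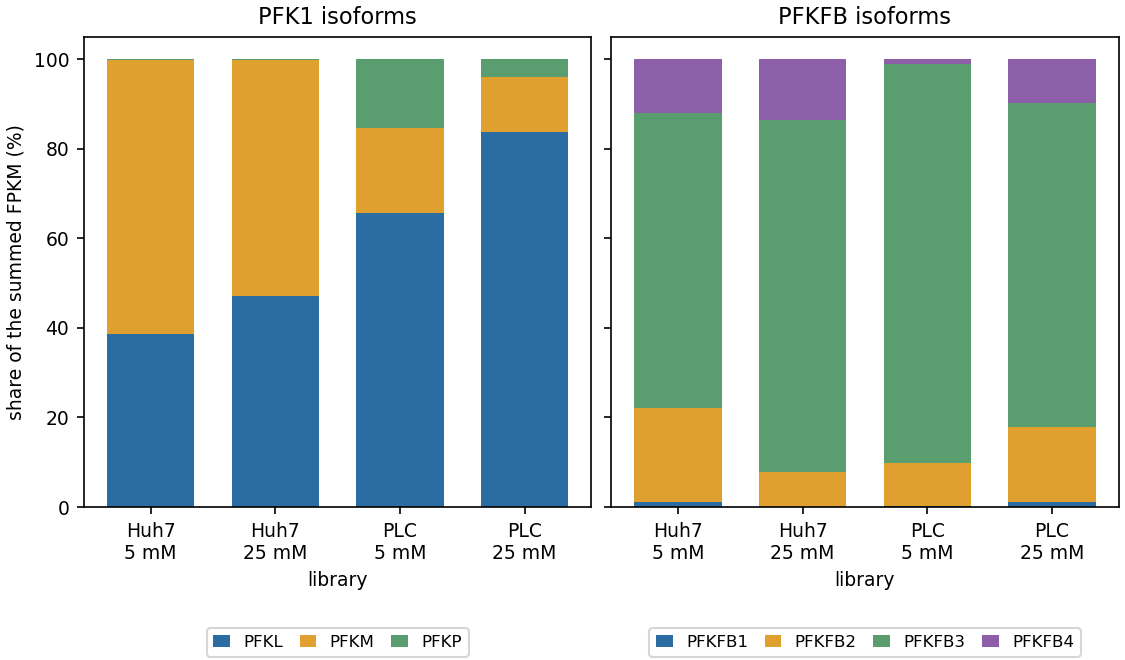
Share of each isoform in the summed FPKM of its family (%), phosphofructokinase subunits on the left and PFKFB enzymes on the right, 1 bar per library. PFKL widens from 5 mM to 25 mM in both lines, and the share of PFKFB3 grows in Huh7 (66.1% to 78.7%) and shrinks in PLC (89.2% to 72.3%).

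Among the bifunctional enzymes, PFKFB3 was the main form in every library. It had 10.7 FPKM at 5 mM and 15 FPKM at 25 mM in Huh7 cells (1402 and 2760 reads), and 83.8 and 27.3 FPKM in PLC cells (15512 and 2674 reads). PLC cells were above Huh7 cells at both concentrations, 7.81-fold at 5 mM and 1.82-fold at 25 mM. In PLC cells at 5 mM it ranked 307 among 19350 protein-coding genes by FPKM, and at 25 mM it ranked 1520.

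PFKFB2, a form regulated by phosphorylation at its C-terminal end, had 3.40 and 1.48 FPKM in Huh7 cells and 9.0 and 6.33 FPKM in PLC cells. Both PLC values lay above both Huh7 values. PFKFB4 had 1.94 and 2.57 FPKM in Huh7 cells and 0.963 and 3.67 FPKM in PLC cells, so it had both its lowest and its highest level in PLC cells. PFKFB1, the liver form, was hardly detected in either carcinoma line, counted 8 and 0 times in Huh7 and 15 times in each PLC library. A count of 0 allows up to 3 reads, or 0.0997 CPM in that library. TIGAR lay between 0.897 and 1.20 FPKM, the narrowest range of the 8 by fold.

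The fit of edgeR called PFKFB2 and PFKFB3 between the lines. PFKFB2 was higher in PLC cells by a log2 change of 1.75 (SE 0.26, adjusted p = 0.000117 in edgeR) and PFKFB3 by 1.92 (SE 0.40, adjusted p = 0.00163 in edgeR), each at both concentrations. PFKFB4, TIGAR and PFKFB1 did not pass, with log2 changes of -0.23, -0.28 and 2.27 and adjusted p of 0.655, 0.510 and 0.169 in edgeR. For PFKFB4 the sign differed between concentrations, 0.497-fold at 5 mM and 1.43-fold at 25 mM in PLC relative to Huh7 cells.

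Ranked by FPKM, the top 3 genes were PFKM, PFKFB3 and PFKL in Huh7 cells at 5 mM and PFKFB3, PFKM and PFKL at 25 mM. In PLC cells they were PFKFB3, PFKFB2 and PFKL at 5 mM and PFKFB3, PFKL and PFKFB2 at 25 mM. In these orders 2 pairs of neighbours had counting intervals that included equality, both in PLC cells: PFKFB4 over TIGAR at 5 mM (1.03, interval 0.856 to 1.25) and PFKP over TIGAR at 25 mM (1.0, interval 0.759 to 1.32). PFKFB1 with 0 reads was not compared. The orders also rest on gene length, which these intervals do not cover. In Huh7 cells at 25 mM the reads ran the other way, 3130 for PFKL, 2831 for PFKM and 2760 for PFKFB3. In PLC cells at 25 mM PFKL had 2681 reads and PFKFB3 2674.

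High glucose was then set against low glucose within each line. The ratio of FPKM and its cut-offs follow the study's methods, while the small amount added to each FPKM and the number of libraries that had to pass were chosen here. A gene was called higher or lower when it exceeded 0.5 FPKM in at least 1 of the 2 libraries and the ratio of high over low glucose, with 0.1 added to each FPKM, was over 1.5 or under 0.67. The intervals that follow cover counting error only and compare 2 libraries, not 2 conditions. The interval of a glucose ratio was computed from the counts, without the added 0.1, so the printed ratio is not its centre. Without the 0.1, PFKFB4 in PLC cells had 3.82 in place of 3.55. PFKFB1 had 1.89 there in place of 1.62, and PFKP 0.455 in place of 0.481. In Huh7 cells 6 members passed the level filter, 0 were higher and 1 was lower, PFKFB2. Over all 21864 genes that passed, 14.1% were higher and 13.7% lower, and over protein-coding genes 5.91% and 5.73%. In PLC cells 7 members passed, 2 were higher (PFKL and PFKFB4) and 2 lower (PFKP and PFKFB3). The background was larger there as well, with 26.2% of all genes higher and 17% lower, and 18.8% and 11.5% of protein-coding genes. The median log2 ratio of the members that passed was 0.04 in Huh7 and -0.05 in PLC cells, beside 0.04 and 0.11 over all genes.

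**Figure D3:**
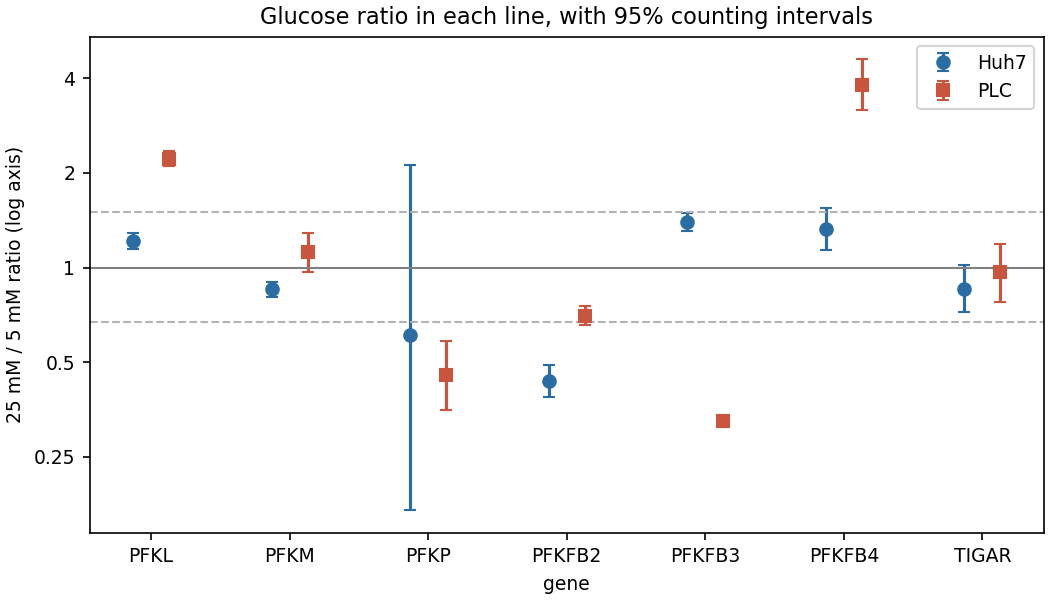
Ratio of high (25 mM) over low (5 mM) glucose for 7 genes on a log axis, without the added 0.1 FPKM. Circles are Huh7, squares are PLC, bars are 95% counting intervals, and dashed lines mark 1.5 and 0.67; PFKFB1 is left out for its 0 reads. The points of PFKFB3 lie on opposite sides of 1, and PFKFB4 has the highest ratio, in PLC.

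PFKFB3 had its 2 ratios on opposite sides of 1. It was 1.40-fold higher at 25 mM in Huh7 cells (interval 1.31 to 1.49), under the threshold of 1.5, and 0.326-fold in PLC cells (0.312 to 0.339). The PLC ratio was 0.233 times the Huh7 ratio (0.215 to 0.251), without the added 0.1. Of the members over the level filter, 5 of 6 in Huh7 cells and 5 of 7 in PLC cells had counting intervals that excluded 1. Of all genes that passed, 44.4% and 55.9% had such an interval. Whether an interval excludes 1 depends on read depth, and no share for genes of like depth was computed. Of the 6 members over the level filter in both lines, only PFKFB3 had intervals on opposite sides of 1. Over all genes, 10.2% had them on opposite sides, and 5.06% were above 1 in Huh7 and below 1 in PLC cells. The difference between the lines has no test, since 4 libraries leave no residual degree of freedom for it.

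PFKFB4 and PFKL were higher at 25 mM in both lines by their counting intervals, with the larger ratio in PLC cells. PFKFB4 gave a ratio of 1.31 in Huh7 (1.14 to 1.55) and 3.55 in PLC cells (3.18 to 4.59), the largest ratio among the members. PFKL gave 1.21 in Huh7 (1.15 to 1.29) and 2.20 in PLC cells (2.10 to 2.35). The PLC ratio was 2.88 times the Huh7 ratio for PFKFB4 (2.27 to 3.64) and 1.82 times for PFKL (1.68 to 1.98), both computed without the added 0.1.

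PFKFB2 and PFKP were lower at 25 mM. PFKFB2 gave 0.452 in Huh7 (0.387 to 0.491) and 0.706 in PLC cells (0.654 to 0.756). The PLC value moved past the threshold of 0.67 with the scaling of TMM (0.651) or DESeq2 (0.645), which made 5 members past the thresholds in PLC cells. PFKP gave 0.481 in PLC cells (0.352 to 0.582) and, with 7 and 6 reads, did not pass the level filter in Huh7 cells. PFKFB1 did not pass in either line. From 8 reads to 0 it was at least 3.75-fold lower at 25 mM in Huh7 cells, computed against 3 reads in that library with the 8 reads taken as exact. The counting interval of this ratio, which also covers the error of the 8 reads, ran from 0 to 0.416. In PLC cells PFKFB1 had 0.228 and 0.431 FPKM, a ratio of 1.62 (0.859 to 4.14).

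PFKM and TIGAR were within the thresholds in both lines. PFKM gave 0.855 in Huh7 (0.808 to 0.902) and 1.11 in PLC cells (0.971 to 1.29). TIGAR gave 0.868 (0.720 to 1.02) and 0.968 (0.779 to 1.19), and both of its intervals included 1. Scaling by TMM shifted log2 ratios without the added 0.1 by -0.039 in Huh7 and -0.12 in PLC cells for every gene alike. It changed the side of 1 for no member with an interval that excluded 1.

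The makeup of the PFKFB family differed between high and low glucose in both lines. PFKFB3 went from 66.1% of the family's FPKM at 5 mM (64.2% to 67.9%) to 78.7% at 25 mM (77.5% to 80.0%) in Huh7 cells. In PLC cells it went from 89.2% (88.8% to 89.5%) to 72.3% (71.0% to 73.7%). PFKFB2 went from 20.9% to 7.78% in Huh7 and from 9.58% to 16.8% in PLC cells. The share of PFKFB2 was thus larger at 25 mM in PLC cells although its own FPKM was lower at 25 mM in both lines. PFKFB4 went from 11.9% to 13.5% in Huh7 and from 1.02% to 9.75% in PLC cells. The family's summed FPKM was 16.2 at 5 mM and 19.1 at 25 mM in Huh7, against 94.0 and 37.7 in PLC, where the value at 25 mM was 0.401 times that at 5 mM.

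PFKFB3 and PFKFB4 are both known to be induced through hypoxia-inducible factor (HIF), and they parted in PLC cells. The FPKM of PFKFB3 was 87.0 times that of PFKFB4 at 5 mM and 7.42 times at 25 mM in PLC cells, a change to 0.0852 of the 5 mM value (0.0709 to 0.102). In Huh7 cells it was 5.54 and 5.84 times, a change of 1.06 with an interval that included 1 (0.894 to 1.25). PFKFB3 relative to PFKL changed to 0.147 of its 5 mM value in PLC cells (0.137 to 0.157) and to 1.15 in Huh7 cells (1.06 to 1.25). Relative to TIGAR, the phosphatase, PFKFB3 went from 90.1 to 30.4 times in PLC cells and from 8.91 to 14.6 times in Huh7 cells.

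The starts of these 3 genes are shown because PFKFB3 and PFKFB4 parted while PFKL went with PFKFB4. They were thus picked by their glucose ratios. Each window holds 250 bases before and 50 after a transcription start of RefSeq on GRCh38.p14, on the strand of the gene. Capitals mark ACGTG, the core bound by HIF, and GCGTG, its variant, on either strand. The E-box CACGTG, read by MYC and, as part of a longer element, by the carbohydrate-response factor, holds ACGTG on both strands and so counts under both:
PFKFB3, chr10:6202682-6202981, plus strand: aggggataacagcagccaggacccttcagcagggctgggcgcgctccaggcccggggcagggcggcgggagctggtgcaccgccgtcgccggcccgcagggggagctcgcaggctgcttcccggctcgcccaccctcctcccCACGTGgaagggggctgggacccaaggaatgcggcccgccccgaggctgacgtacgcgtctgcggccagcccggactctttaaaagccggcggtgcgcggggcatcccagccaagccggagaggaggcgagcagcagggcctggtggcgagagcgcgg
PFKFB4, chr3:48556754-48557053, minus strand: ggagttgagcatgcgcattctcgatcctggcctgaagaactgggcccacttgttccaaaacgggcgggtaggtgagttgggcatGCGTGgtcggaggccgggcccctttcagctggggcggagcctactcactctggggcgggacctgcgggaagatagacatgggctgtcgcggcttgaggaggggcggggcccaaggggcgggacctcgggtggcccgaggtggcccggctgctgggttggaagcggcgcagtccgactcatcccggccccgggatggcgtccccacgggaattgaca
PFKL, chr21:44299803-44300102, plus strand: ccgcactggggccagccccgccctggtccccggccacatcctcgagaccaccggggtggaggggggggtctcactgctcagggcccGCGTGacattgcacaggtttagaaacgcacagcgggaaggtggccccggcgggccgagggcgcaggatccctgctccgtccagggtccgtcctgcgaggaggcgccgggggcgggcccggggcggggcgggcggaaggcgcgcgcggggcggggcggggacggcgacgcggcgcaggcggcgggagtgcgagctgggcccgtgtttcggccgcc
This PFKFB3 window held 1 CACGTG and no GCGTG, while those of PFKFB4 and PFKL held 1 GCGTG each and no ACGTG. RefSeq gives PFKFB3 another start upstream, whose window at chr10:6144671-6144970 held 1 GCGTG. Counts per gene do not tell which start was used. Of all 35116 promoter windows, 7.26% held CACGTG, 21.4% ACGTG and 36.5% GCGTG, so a match is common and is a description only. Windows were found for 7 of the 8 genes. PFKP, lower at high glucose in PLC cells as PFKFB3 was, had a window with 3 GCGTG and another with 1 ACGTG. Some windows of PFKM and that of TIGAR, genes within the thresholds in both lines, held 1 ACGTG. Those of PFKFB1 held no match. Whether these motifs bear on the glucose ratios was not tested.

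A change common to both lines was tested with the fit of edgeR, the line as a block, with 1 residual degree of freedom. It called 88 of 23217 genes (0.379%) and 0 of the 8 members at an adjusted p of 0.05. At an unadjusted p under 0.05 it named 4 members, where 8.51% of all genes passed. DESeq2 and limma-voom also called 0 members after adjustment, and 3 and 5 before it. PFKFB2 came closest, with a log2 change of -0.93 (SE 0.25, adjusted p = 0.164 in edgeR), lower in 2 of 2 lines. Without the filter on low counts its adjusted p was 0.0417, and over all alternatives it lay between 0.0417 and 1.0. PFKFB4 had a log2 change of 1.08 (SE 0.37, adjusted p = 0.332 in edgeR), higher in 2 of 2 lines, and PFKL one of 0.64 (SE 0.25, adjusted p = 0.448 in edgeR), also higher in 2 of 2. PFKP had -1.12 (SE 0.46, adjusted p = 0.482 in edgeR), lower in 2 of 2 lines but on 7 and 6 reads in Huh7 cells. PFKFB3, with opposite directions, had -0.65 (SE 0.39, adjusted p = 0.748 in edgeR). PFKM, TIGAR and PFKFB1 had -0.12, -0.22 and -0.84, with adjusted p of 0.9745, 0.961 and 0.961 in edgeR.

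The other enzymes of the pathway give the setting of these values. Of 25 genes of glycolysis and gluconeogenesis, 16 passed the level filter in Huh7 cells, with 1 higher (LDHA, 1.53) and 2 lower (PCK2, 0.355, and ENO2, 0.475). In PLC cells 19 passed, 7 higher and 2 lower. The higher ones included PCK1 (4.45), the entry enzyme of gluconeogenesis, PKLR (3.07), the liver pyruvate kinase, and HK1 (2.21), and the lower ones were the hexokinases HK2 (0.110) and HKDC1 (0.241). Their median log2 ratio was 0.07 in Huh7 and 0.31 in PLC cells. One of 22 tested passed for both lines, HKDC1, with a log2 change of -1.87 (SE 0.31, adjusted p = 0.0206 in edgeR), lower in 2 of 2 lines. In PLC cells HKDC1 was counted 8706 and 1106 times, against 25 and 17 in Huh7.

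Of 10 genes that make or use fructose phosphate beside phosphofructokinase, 8 passed in Huh7 cells, and 0 were higher or lower. In PLC cells 6 passed, with ALDOC higher (2.27) and GFPT1 lower (0.594), and the median log2 ratios were -0.08 and 0.14. GFPT1, the entry enzyme of hexosamine synthesis, was 1.12 in Huh7 cells, so its intervals lay on opposite sides of 1 in the same order as those of PFKFB3. The fit of edgeR called 0 of the 9 tested, and 0 of them at an unadjusted p under 0.05.

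Of 18 HIF targets, 15 passed in Huh7 cells, with 4 higher and 2 lower, and 13 in PLC cells, with 2 higher and 3 lower. The higher ones in Huh7 were NDRG1 (3.92), PDK1 (1.68), BNIP3L (1.63) and P4HA1 (1.63). VEGFA was lower in both lines (0.540 and 0.450), with a log2 change of -1.11 (SE 0.22, adjusted p = 0.0563 in edgeR). Over all genes above the level filter in both lines, 5.06% had intervals above 1 in Huh7 and below 1 in PLC cells. As for PFKFB3, 4 of the 13 targets above that filter in both lines had them so. These were ADM (1.42 and 0.451), the glucose transporter SLC2A1 (1.25 and 0.641), the pyruvate dehydrogenase kinase PDK1 (1.68 and 0.873) and the glycolytic kinase PGK1 (1.26 and 0.918). Of these, ADM and SLC2A1 were past the threshold in PLC cells. PGK1 was not, and was counted 20000 and 9730 times there. Whether an interval excludes 1 depends on read depth. The 5.06% was taken over genes of every class and was not matched for depth, so the 2 shares are not like for like. Outside this list, the glycolytic gene ENO1 (1.08 and 0.815) and the regulator MLXIP (1.10 and 0.789) also had intervals on these sides, as GFPT1 did. Among the 13 targets, BNIP3L (1.63 and 1.87), ANGPTL4 (1.25 and 1.75) and P4HA1 (1.63 and 1.19) had intervals above 1 in both lines, as PFKFB4 did. NDRG1 (3.92 and 1.42) had such intervals too, but was under the level filter in PLC cells and so not among the 13. The share of all genes with intervals above 1 in both lines was not computed. Glycolytic genes outside this list had them as well, such as TPI1 (1.25 and 1.18), PGAM1 (1.43 and 1.53) and PKM (1.24 and 1.31). The list's median log2 ratio was 0.32 in Huh7 and -0.13 in PLC cells, and edgeR called 0 of 17 tested after adjustment and 5 before it.

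**Figure D4:**
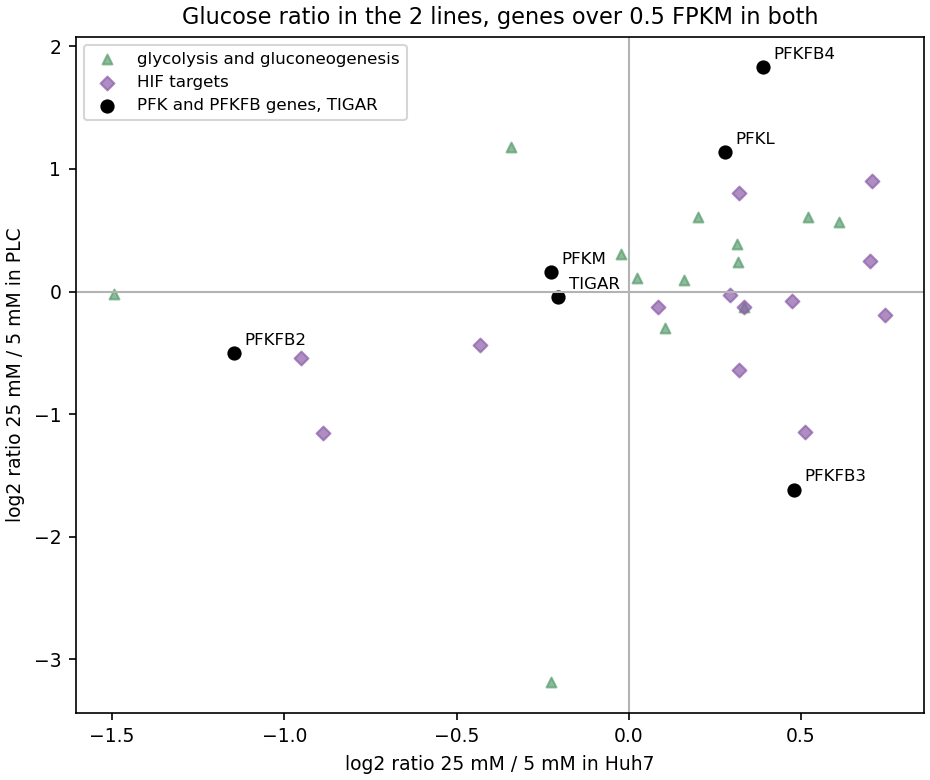
Log2 ratio of high over low glucose in Huh7 (x axis) and PLC (y axis) for genes over 0.5 FPKM in both lines: 6 of the 8 genes (black), 13 genes of glycolysis and gluconeogenesis (triangles) and 13 HIF targets (diamonds), 1 point per gene. PFKFB3 lies at the lower right (0.48 and -1.62) and PFKFB4 at the upper right (0.39 and 1.83).

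Of 13 carbohydrate-response targets, 10 passed in Huh7 cells with 2 higher and 1 lower, and 12 in PLC cells with 8 higher and 2 lower. TXNIP, the usual marker of that response, was counted 8 and 439 times in Huh7. In PLC it was counted 26 and 18 times, under the level filter, with a ratio of 1.22 whose counting interval included 1 (0.675 to 2.48). KLF10 had the directions of PFKFB3 (1.15 and 0.472). Their median log2 ratios were 0.02 and 0.73, and edgeR called 0 of 13 after adjustment and 4 before it.

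Among 15 regulators of the members, all of which passed in both lines, Huh7 had 0 higher and 1 lower, and PLC 5 higher and 1 lower. The lower one in both was MYC (0.633 and 0.546). The higher ones in PLC cells were AKT1 (1.98) and AKT2 (1.65), which phosphorylate PFKFB2, PRKAA1 (1.81), a catalytic subunit of AMPK, MLXIPL (1.86), the carbohydrate-response factor, and TRIM21 (1.70), a ubiquitin ligase reported for PFKP. MLXIPL was counted only 38 and 44 times in PLC cells, and exceeded 0.5 FPKM there only at 25 mM (0.261 and 0.569 FPKM). TRIM21 was counted 71 and 66 times there. HIF1A was 0.804 and 0.834, both within the thresholds. The list's median log2 ratios were -0.14 and 0.10, and edgeR called 0 of 15 after adjustment and 1 before it. These are RNA levels and say nothing of protein activity.

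The genes whose pattern was most like that of a member were looked for among 9185 protein-coding genes with at least 100 reads in every library, by Euclidean distance of log2 CPM centred on the mean of the 4 libraries. With 4 points and this many genes, close matches are common, and the distances are a description. For PFKL the nearest were CEP55 (distance 0.0616), PIGX and JMJD8, and for PFKM MAP4K4 (0.0909), GAB1 and FGFRL1. For PFKFB4 they were KIF2C (0.0670), SLC9A3R2 and POLE2, and for TIGAR DLST (0.0168), AMBP and RABEP1. The nearest to PFKFB2 were ABLIM3 (0.0981), SQSTM1 and PPARGC1A, 3 genes highest in PLC cells at 5 mM and lowest in Huh7 cells at 25 mM. PFKFB3 had no match as close as the others, with FOXC1 at 0.388, ZNF48 at 0.423 and HSPA1B at 0.489. Among the members themselves, PFKL and PFKFB4 were the nearest pair (0.749) and PFKM and PFKFB3 the farthest (4.56). PFKP and PFKFB1 had under 20 reads in a library and were left out.

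Exons of other genes cover part of some members. On the opposite strand, SENP1 shared 399 bases with PFKM (5.51% of its exon bases) and YOD1 315 bases with PFKFB2 (3.10%). On the same strand, UCN2, with 0 to 7 reads, shared 298 bases with PFKFB4 (4.88%). The kit kept the strand, but whether the counting used it is not given in the sources used here. YOD1 was counted 1439 and 2442 times for Huh7 and 955 and 605 times for PLC, and its part in the reads of PFKFB2 was not tested. SENP1 was counted 1341 and 1872 times for Huh7 and 1265 and 729 times for PLC. PFKM was counted 538 and 319 times for PLC, and the part of SENP1 in its reads was not tested either. The genes lie on GRCh38 at chr21:44300051-44327376 (PFKL), chr12:48105139-48146404 (PFKM), chr10:3066333-3137718 (PFKP), chrX:54932961-54998534 (PFKFB1), chr1:207034366-207081024 (PFKFB2), chr10:6144934-6254644 (PFKFB3), chr3:48517684-48562015 (PFKFB4) and chr12:4307763-4360028 (TIGAR), and the bounds in the table were those of GENCODE release 44 for all 8.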

How the data were processed

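RNA of Huh7 and PLC cells was sequenced by the authors after rRNA depletion and directional library construction. The deposited values are counts, whole numbers of reads per gene that were not normalized. The submitters' processing notes name HISAT2, featureCounts and hg38; their versions, the annotation release and the strand setting are not given in the sources used here. Of 59657 lines, 59652 were used, and 5 broken lines of ANK2 were left out. The 4 libraries were assigned to line and glucose by the labels. No replicate exists, so p-values do not measure the spread between replicate cultures. In the fits with a block, the only spread left within a gene is the difference between the lines in its glucose response. A gene with opposite responses, such as PFKFB3, thus adds to its own error.

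The 8 members and all gene lists were chosen with earlier results of these data known. All 8 were named; other genes named are list members, overlapping genes, and the 3 protein-coding genes nearest to each member. The results of 1 list and 1 regulator are not reported here.

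FPKM, ratios with 0.1 added and exact binomial (Clopper-Pearson) 95% intervals of the ratios without it were computed in Python 3.11.15. Shares have delta-method intervals. All of these intervals cover counting error only. The floor of 3 reads stands for 0.0991 to 0.187 CPM. Counts were tested with edgeR 4.0.16 (quasi-likelihood, filterByExpr, TMM), with DESeq2 1.42.0 and limma 3.58.1 as alternatives in R 4.3.3. On simulated data for 23217 genes, edgeR recovered 3%, 63.5% and 92.5% of 200 genes changed 2-, 4- and 8-fold under glucose, with 1, 3 and 3 false calls. The simulation gave every gene the same dispersion and the changed genes the same fold in both lines. Its figures therefore do not cover genes whose response differed between the lines. Coding sequences came from GENCODE release 44 and promoters from RefSeq (GRCh38.p14).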

Additional observations from a re-analysis of the deposited data

Results flagged for a closer look

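PFKFB3 was picked out because its glucose ratio had opposite directions in the 2 lines, 1.40 in Huh7 cells and 0.326 in PLC cells. Each line has 1 library per concentration, so the difference was not tested. The ratio stayed on these sides of 1 with TMM scaling (1.36 and 0.30) and with the size factors of DESeq2 (1.37 and 0.297).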

How the results depend on the processing

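Counts of members past a threshold changed by over 1.5 times under 2 alternatives. Without the filter on FPKM, 2 members were past the thresholds in Huh7 cells, PFKFB1 with its 8 and 0 reads beside PFKFB2. Without the filter on low counts, edgeR called 1 member for a change common to both lines, PFKFB2. The log2 change of PFKFB4 between the lines, not called, turned from -0.23 to 0.0032 without glucose as a block. Of the 4 calls between the lines, PFKP was not tested with at least 10 counts in every library, which left 3.

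Isoform shares moved beyond their counting intervals with the length used. Without length correction, PFKM made up 56.2% and 47.4% in Huh7 cells at 5 mM and 25 mM, PFKL 72.4% and 87.0% in PLC cells, and PFKFB3 58.3% and 74.9% in Huh7 and 83.9% and 65.5% in PLC cells. With the coding length of the canonical transcript, chosen after seeing the data, they were 56.2%, 47.4%, 72.4%, 87.1%, 57.1%, 73.6%, 83.5% and 64.4%. The direction from 5 mM to 25 mM was the same for each of these shares under both. Coding lengths from RefSeq proteins were not run, since no protein table was used here. With a pseudocount of 1 or another scaling, glucose ratios of some members moved beyond their counting intervals, 11 values in all and none across 1, and 143 other values kept their direction and their side of the threshold or stayed within their intervals.

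No paired analysis was possible because the labels give no replicate numbers that groups share, beyond the line as a block in the fit already given. With 1 library per condition there was no replicate to leave out. PFKP in Huh7 cells and PFKFB1 in both lines, with 0 to 15 reads, are limited by depth, and 16049686 reads make PLC cells at 25 mM the least precise library.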
